A study of Mus musculus with 12 samples.

Results

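Hmgcs1, Idi1, Sqle, Lss, Srebf2, Insig1 and Insig2 were followed in hepatocyte nuclei of mouse liver, of freshly isolated liver cells and of cultured primary hepatocytes. These 7 genes were chosen by name, for their place in cholesterol synthesis and in its control, and with earlier results of these data known. The count matrices hold 32285 genes, of which 26778 had enough counts in hepatocyte nuclei to be tested. None of the 7 is itself an uptake receptor, and uptake was followed through a separate list of genes. Each of 8 wild-type male mice (10 to 12 weeks of age, chow-fed) gave 3 samples: a piece of the median lobe (Liver), cells after collagenase perfusion and low-speed spins (Cell Suspension), and hepatocytes kept for 24 h on collagen in medium with dexamethasone, insulin and a low share of serum (Primary Hepatocytes). The labels give the strain as C57BL6J, the paper's methods as C57BL/6NTac, and no group carried an allele or agent beyond these steps. Nuclei of the 24 samples were marked with hashtag antibodies, mixed by 4 into 6 pools and sequenced as single-nucleus libraries, in which each captured RNA molecule is counted once by its unique molecular identifier (UMI). The comparisons ask how 3 contrasts are reflected in the hepatocytes' own RNA. These are isolation (Cell Suspension against Liver), culture after isolation (Primary Hepatocytes against Cell Suspension) and both together (Primary Hepatocytes against Liver).

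Cholesterol is built from acetyl-CoA. HMGCS1 makes HMG-CoA in the cytosol, IDI1 turns over the isoprenoid building blocks, SQLE oxidises squalene, and LSS closes the ring to lanosterol. The enzyme genes are driven by SREBP2, the product of Srebf2, which is held in the endoplasmic reticulum with SCAP while INSIG1 or INSIG2 is bound, and which is released for cleavage when sterols run low. Insig1 is itself a target of SREBP, whereas Insig2 in liver is known for a transcript of its own that responds to insulin and fasting. The liver makes cholesterol for its own membranes, for lipoproteins and for bile acids.

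All 7 are protein-coding genes in the GENCODE annotation of GRCm38, the build named for the counts. Hmgcs1 lies at chr13:119690379-119708260 and Idi1 at chr13:8885501-8892451, Sqle at chr15:59315077-59331192 and Srebf2 at chr15:82147181-82205379, Lss at chr10:76531588-76557138 and Insig1 at chr5:28071363-28078662, all on the plus strand, and Insig2 at chr1:121304353-121332589 on the minus strand. Counts are for whole genes, introns included. An antisense gene overlaps Hmgcs1 (Gm48342, 2.56 CPM over all hepatocyte nuclei) and Lss (4930483K19Rik, 2.70 CPM), and whether the counting used strand is not given in the sources used here.

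The upstream sequence of 6 of the 7 genes was found in a RefSeq promoter table (GRCm38.p6); Sqle had no entry. Sequence before the annotated gene start is printed here for Srebf2 and Hmgcs1, the members with the letters of a sterol regulatory element, and for Insig1 and Insig2, whose RNA differed from Liver in opposite directions in culture, though not in Cell Suspension. Capitals mark matches to the sterol regulatory element core TCACNCCA and to the CCAAT box, bound by NF-Y, on either strand (the reverse of CCAAT reads ATTGG). The Hmgcs1 stretch lies at chr13:119690101-119690350 on the plus strand, Srebf2 at chr15:82147019-82147180 (plus), Insig1 at chr5:28071162-28071362 (plus) and Insig2 at chr1:121332590-121332839 (minus, the outermost of 3 annotated starts).
Hmgcs1: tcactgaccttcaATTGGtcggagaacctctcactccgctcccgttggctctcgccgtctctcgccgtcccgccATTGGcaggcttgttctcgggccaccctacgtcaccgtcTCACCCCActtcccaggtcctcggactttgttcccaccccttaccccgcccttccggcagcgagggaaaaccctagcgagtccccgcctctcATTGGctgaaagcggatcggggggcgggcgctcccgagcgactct
Srebf2: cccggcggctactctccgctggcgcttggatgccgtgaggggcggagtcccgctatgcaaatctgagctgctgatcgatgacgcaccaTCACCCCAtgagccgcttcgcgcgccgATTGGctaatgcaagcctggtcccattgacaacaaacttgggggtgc
Insig1: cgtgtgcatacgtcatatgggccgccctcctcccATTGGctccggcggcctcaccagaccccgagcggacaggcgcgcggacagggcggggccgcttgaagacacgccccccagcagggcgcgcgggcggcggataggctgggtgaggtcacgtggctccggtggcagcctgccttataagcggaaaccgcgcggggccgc
Insig2: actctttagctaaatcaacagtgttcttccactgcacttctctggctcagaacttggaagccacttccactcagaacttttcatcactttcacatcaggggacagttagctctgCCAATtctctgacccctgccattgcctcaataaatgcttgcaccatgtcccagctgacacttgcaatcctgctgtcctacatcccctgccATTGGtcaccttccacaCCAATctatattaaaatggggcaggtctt
Within 250 bases before the RefSeq start, the sterol regulatory element core was found in Hmgcs1, 137 bases before the start, and in Srebf2, 162 bases before it. The RefSeq start of Srebf2 lies inside the annotated gene, so the stretch printed above ends short of it and the core stands nearer to the end of that stretch. Of 27025 genes with such a window, 4.2% held these letters in at least 1 window. A CCAAT box was found in all 6 members with an entry, in Insig2 in 1 of its 3 windows, against 37.5% of all genes, and in 11 of the 12 other synthesis genes with an entry, of which 1 held the sterol regulatory element core. Neither of the 2 matches in Idi1 lay wholly before its annotated gene start. The matches are letters in a window and do not by themselves mark a bound site, and the E box CACGTG was found in Insig1 alone among the members (6.86% of all genes).

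Hepatocyte sums held 6872031 to 29023569 UMIs per Liver sample, 2104087 to 17452582 per suspension and 9852007 to 21226254 per culture, from 44788 hepatocyte nuclei among 53467. The summed level of 8 hepatocyte markers was 9742 to 16786 CPM in Liver, 11865 to 19099 in suspension and 1576 to 5470 after culture, so the markers were lower in culture, where their sum overlapped that of endothelial nuclei (1734 to 4080 CPM in Liver, 976 to 3719 after culture). The sum alone did not set the cultured hepatocyte nuclei apart. The hepatocyte label of nearly all of them was given here to whole clusters, according to which marker list summed highest in each. Of the 16283 hepatocyte nuclei in Primary Hepatocytes, the study itself annotated only 73 as a type of non-cultured cell. Among the lists of other cells, summed medians in the same nuclei were higher in culture than in Liver for the stellate list (22.7 to 53.1 CPM in Liver, 57.2 to 629 in Primary Hepatocytes, with Pdgfrb, Lrat, Colec11, Col1a1 and Col3a1 under 1 CPM) the leukocyte list (10.7 to 26.9 and 37.1 to 62.6 CPM), the endothelial list (70.2 to 118 and 107 to 168 CPM, with Clec4g under 1 CPM) and the biliary list (133 to 195 and 151 to 220 CPM, with Epcam, Krt19 and Krt7 under 1 CPM), and their part in the results was not tested. A total of 337 barcodes occurred in more than 1 pool. Liver and Primary Hepatocytes shared a pool only in pools 2 and 5. Levels are given as CPM, a gene's UMIs scaled by depth to the hepatocyte UMIs of its sample and by edgeR's TMM factor, and are compared between samples, not between genes, since unspliced RNA of long genes is captured at more places. TMM scaling multiplied plain CPM by 1.00 to 1.25 in Liver, 1.09 to 1.36 in suspension and 0.635 to 0.806 after culture. Over all genes tested, the median log2 fold change between Primary Hepatocytes and Liver was 0.10 with it and 0.66 without it (13078 genes called higher and 4196 lower, against 7330 and 7049 with it). The fold changes below are those fitted with TMM scaling and are to be read against that median.

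**Figure D1:**
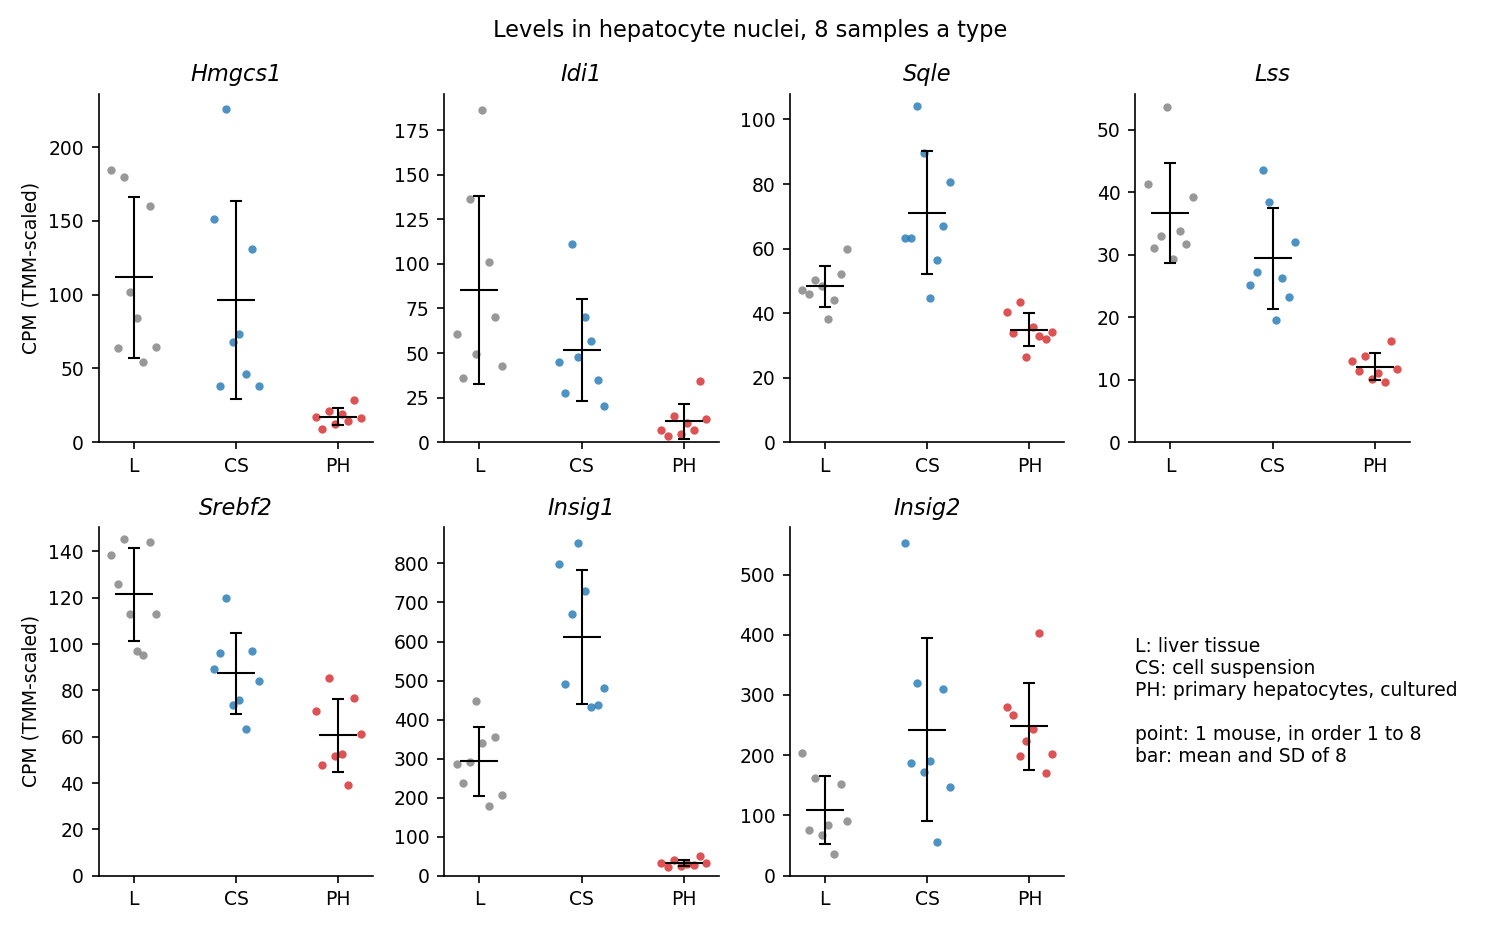
Level of each gene in hepatocyte nuclei (y axis, TMM-scaled CPM from 0) in Liver (L), Cell Suspension (CS) and Primary Hepatocytes (PH). Points are single mice in order 1 to 8, and bars give the mean and SD of 8 samples. Insig1, Hmgcs1, Lss, Srebf2 and Idi1 lie lower in every PH sample than in any L sample, whereas Insig2 is high in PH and in part of CS.

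In cultured hepatocytes the synthesis enzymes and Insig1 were lower than in liver, and Insig2 was higher. Against Liver, all 7 members passed the threshold (edgeR's quasi-likelihood test, Benjamini-Hochberg adjusted p under 0.05), 6 lower and 1 higher. Of all 26778 genes tested, 53.7% were called in this comparison, 26.3% lower and 27.4% higher. The median log2 fold change of the members was -1.60. With TMM scaling the Liver and Primary Hepatocytes samples did not overlap in 5 of the 7, as held for 30.3% of all genes. Which members overlapped depended on the scaling. On plain library totals Idi1 overlapped (up to 46.5 CPM in culture, from 35.8 in Liver), as did Srebf2 (up to 114, from 77.7). Insig2 then did not (from 232 CPM in culture, up to 195 in Liver). Against Cell Suspension 6 members were called, all lower (50.4% of all genes called, 23.5% lower), with a median of -1.29 against 0.02 for all genes. Between Cell Suspension and Liver 4 were called, 3 higher and 1 lower (22.3% of all genes called, 8.15% higher and 14.2% lower), and none was without overlap, as 5.64% of all genes were. On plain library totals the log2 fold changes against Liver were -2.13 for Hmgcs1, -2.27 for Idi1, 0.09 for Sqle, -1.04 for Lss, -0.44 for Srebf2, -2.62 for Insig1 and 1.75 for Insig2. Against Cell Suspension they were -1.75, -1.43, -0.33, -0.58, 0.17, -3.53 and 0.74 in the same order, so the falls in culture were smaller on that scale or, for Sqle against Liver and Srebf2 against Cell Suspension, turned sign. The comparisons share samples and are therefore not independent of each other. As the genes and lists were chosen with earlier results of these data known, the counts describe them and test no list fixed beforehand.

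The Liver samples of Hmgcs1 ranged from 54.1 to 185 CPM (median 93.0), those of Cell Suspension from 38.0 to 226 (median 70.8) and the cultured ones from 9.24 to 28.5 (median 16.98). With TMM scaling all 8 Primary Hepatocytes samples lay below all 16 others, while Liver and Cell Suspension overlapped over most of their range. On plain library totals the cultured samples (up to 38.7 CPM) still lay below Liver (from 49.3) but overlapped Cell Suspension (from 33.2). The mean fell 6.45-fold from Liver to culture, from 112 ± 54.8 to 17.3 ± 5.93 CPM (SD, n = 8 each), a log2 fold change of -2.69 ± 0.35 (SE, edgeR adjusted p = 6.78e-08). Against Cell Suspension it was -2.47 ± 0.34 (adjusted p = 3.30e-07). Cell Suspension and Liver differed by -0.22 ± 0.33 (adjusted p = 0.701), with Cell Suspension higher in only 1 mouse of 8.

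Idi1 had a median of 65.5 CPM in Liver (range 35.8 to 186), of 46.4 in Cell Suspension (20.4 to 111) and of 8.89 after culture (3.28 to 34.2). The cultured samples lay below all Liver samples with TMM scaling, though not on plain library totals. The cultured sample of mouse 7, at 34.2 CPM, stood inside the range of Cell Suspension, apart from the other 7 cultured samples at up to 14.5 CPM. Idi1 was lower in culture than in Liver by a log2 fold change of -2.87 ± 0.41 (SE, edgeR adjusted p = 5.58e-07) and than in Cell Suspension by -2.15 ± 0.41 (adjusted p = 4.26e-05). With unspliced counts alone the latter was -1.03 and lost the call (edgeR adjusted p = 0.0600). In Cell Suspension it was lower than in Liver in 8 of 8 mice, yet the difference of -0.72 ± 0.39 did not pass (adjusted p = 0.205), although it did with spliced counts alone (-1.05, adjusted p = 0.0357). Idi1 lies close to its copy Idi2, and reads that fit both cannot be told apart, though Idi2 was at 0.820 CPM in Liver, 0.141 in suspension and 1.25 after culture.

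Sqle, whose product catalyses a rate-limiting step downstream of HMG-CoA, had the smallest difference between culture and Liver. The Liver samples ranged from 38.0 to 59.9 CPM (median 47.8), those of Cell Suspension from 44.6 to 104 (median 65.2) and the cultured ones from 26.5 to 43.3 (median 34.0). Cell Suspension was higher than Liver in 8 of 8 mice (log2 fold change 0.56 ± 0.14, edgeR adjusted p = 0.00255; 0.18 with spliced counts alone, adjusted p = 0.371). With TMM scaling culture was below Cell Suspension without overlap (-1.03 ± 0.14, adjusted p = 1.44e-07). On plain library totals the cultured samples (41.6 to 57.9 CPM) lay inside the range of Cell Suspension (35.3 to 77.3). The lower level in culture than in Liver (-0.47 ± 0.14, adjusted p = 0.00397) depended on the scaling. On plain library totals the sign turned (0.09, adjusted p = 0.544), and within pool 5 the difference was 0.02, against -0.85 within pool 2. Each of these pools held only 1 Liver sample. The call against Liver was also lost with unspliced counts alone, with all nuclei of a sample and with sums thinned to the smallest total (adjusted p = 0.119, 0.295 and 0.169).

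Lss had a median of 33.4 CPM in Liver (range 29.3 to 53.6), of 26.7 in Cell Suspension (19.6 to 43.5) and of 11.5 after culture (9.66 to 16.1). No cultured sample reached a Liver or Cell Suspension sample with TMM scaling. On plain library totals the cultured samples (up to 21.9 CPM) stayed below Liver (from 23.5) but overlapped Cell Suspension (from 15.5). The log2 fold change of culture was -1.60 ± 0.15 against Liver (SE, edgeR adjusted p = 1.36e-10) and -1.29 ± 0.15 against Cell Suspension (adjusted p = 1.56e-08). Cell Suspension was below Liver in 7 of 8 mice, with a log2 fold change of -0.31 ± 0.15 (adjusted p = 0.148). Without mouse 3, the mouse that went the other way, this difference was -0.43 and passed (adjusted p = 0.0441), as it did with the pool as covariate (-0.49, adjusted p = 0.0432), on plain library totals (-0.46, adjusted p = 0.0229) and with unspliced counts alone (-1.16, adjusted p = 5.96e-05).

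The Liver samples of Srebf2, the gene of the transcription factor itself, ranged from 95.5 to 145 CPM (median 119), those of Cell Suspension from 63.3 to 120 (median 86.7) and the cultured ones from 39.0 to 85.3 (median 56.7). With TMM scaling, Cell Suspension was below Liver and culture below Cell Suspension in all 8 mice. The second order depended on the scaling, for on plain library totals the mean was 81.3 CPM in culture and 72.3 in Cell Suspension. The log2 fold change of culture against Liver was -1.003 ± 0.15 (SE, edgeR adjusted p = 8.16e-07), without overlap under TMM scaling but with overlap on plain library totals. Culture against Cell Suspension gave -0.53 ± 0.15 (adjusted p = 0.00342), which turned to 0.17 on plain library totals (adjusted p = 0.343). Cell Suspension against Liver gave -0.48 ± 0.15 (adjusted p = 0.0183), and missed the threshold without mouse 1 or mouse 4 (adjusted p = 0.0513 and 0.0544), with RLE scaling (0.0517), with all nuclei (0.0595), with thinned sums (0.139) and with spliced counts alone (0.319).

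Insig1 had the largest fold change of the 7 in both comparisons with culture when the splicing states were summed over all 8 mice. Against Liver, Idi1 fell more with spliced counts alone (-3.64, Insig1 -3.21). With a mouse left out Idi1 reached -3.37, while Insig1 went no lower than -3.25. Insig1 had a median of 288 CPM in Liver (range 179 to 448), of 581 in Cell Suspension (432 to 852) and of 31.1 after culture (23.5 to 49.3). It was higher in Cell Suspension than in Liver in 8 of 8 mice, on average 2.09-fold, and then 19.0-fold lower in culture than in Cell Suspension with TMM scaling. Without it the means were 498 CPM in Cell Suspension and 43.1 after culture. The log2 fold changes were 1.06 ± 0.19 for Cell Suspension against Liver (SE, edgeR adjusted p = 7.90e-05), -4.25 ± 0.21 for culture against Cell Suspension (adjusted p = 1.20e-16) and -3.18 ± 0.20 for culture against Liver (adjusted p = 1.98e-14). These calls held under each of the 22 alternative settings.

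Insig2 was the one member that was higher in culture than in Liver. The Liver samples ranged from 36.6 to 204 CPM (median 87.9), those of Cell Suspension from 55.6 to 553 (median 189) and the cultured ones from 171 to 403 (median 233). Cell Suspension and culture each exceeded Liver in 8 of 8 mice, with 5 of 8 cultured samples above all Liver samples under TMM scaling. On plain library totals the lowest cultured sample (232 CPM) lay above the highest Liver sample (195 CPM). The log2 fold change was 1.18 ± 0.32 for culture against Liver (SE, edgeR adjusted p = 0.00238) and 1.15 ± 0.32 for Cell Suspension against Liver (adjusted p = 0.00937). With the pool as covariate both lost the call (0.81, adjusted p = 0.130, and 0.86, adjusted p = 0.106), while within pools 2 and 5 culture exceeded Liver by 1.70 and 1.23. Each of these pools held only 1 Liver sample (67.8 CPM in mouse 4 and 84.4 in mouse 5). The other Liver samples (36.6 to 204 CPM) were in pools without a cultured sample. Cell Suspension exceeded Liver within pools 1, 2 and 5 (1.24, 1.29 and 1.03) but not within pool 6 (-0.57), each pool with only 1 sample on at least 1 side. With spliced counts alone the call of Cell Suspension against Liver was also lost (0.34, edgeR adjusted p = 0.546). Culture and Cell Suspension differed by 0.04 ± 0.32 (adjusted p = 0.940), with culture higher in 5 of 8 mice. On plain library totals culture was higher by 0.74 and passed (edgeR adjusted p = 0.0463).

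The other enzymes of the pathway were lower in culture as well. All 15 further synthesis genes were called lower in Primary Hepatocytes than in Liver, each without overlap, with a median log2 fold change of -2.57, while 26.3% of all genes were called lower and 30.3% did not overlap (median 0.10). The same 15 were lower than in Cell Suspension (median -2.23, 23.5% of all genes called lower), 13 of them without overlap, as 26.6% of all genes were. These counts of genes without overlap were taken with TMM scaling. On plain library totals all 15 were still called lower than Liver (median -2.004) and 14 lower than Cell Suspension. Examples of large falls against Liver were Mvd, the decarboxylase that makes isopentenyl diphosphate (-4.11 ± 0.21, from 20.4 to 1.19 CPM), and Sc5d, a lathosterol desaturase (-3.58 ± 0.23, from 384 to 32.1 CPM). The smallest was in Cyp51, the lanosterol demethylase (-1.37 ± 0.21, from 80.1 to 31.0 CPM). After isolation alone 6 of the 15 were lower than in Liver and none higher, against 14.2% and 8.15% of all genes. These were Acat2 (-0.85), Msmo1 (-0.82), Nsdhl (-0.76), Dhcr7 (-0.76), Mvd (-0.56) and Tm7sf2 (-0.50), and each was past an edgeR adjusted p of 0.05. Mvd lost the call with RLE scaling (-0.48, edgeR adjusted p = 0.0556), and Ebp gained one on plain library totals (-0.49, adjusted p = 0.0138).

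**Figure D2:**
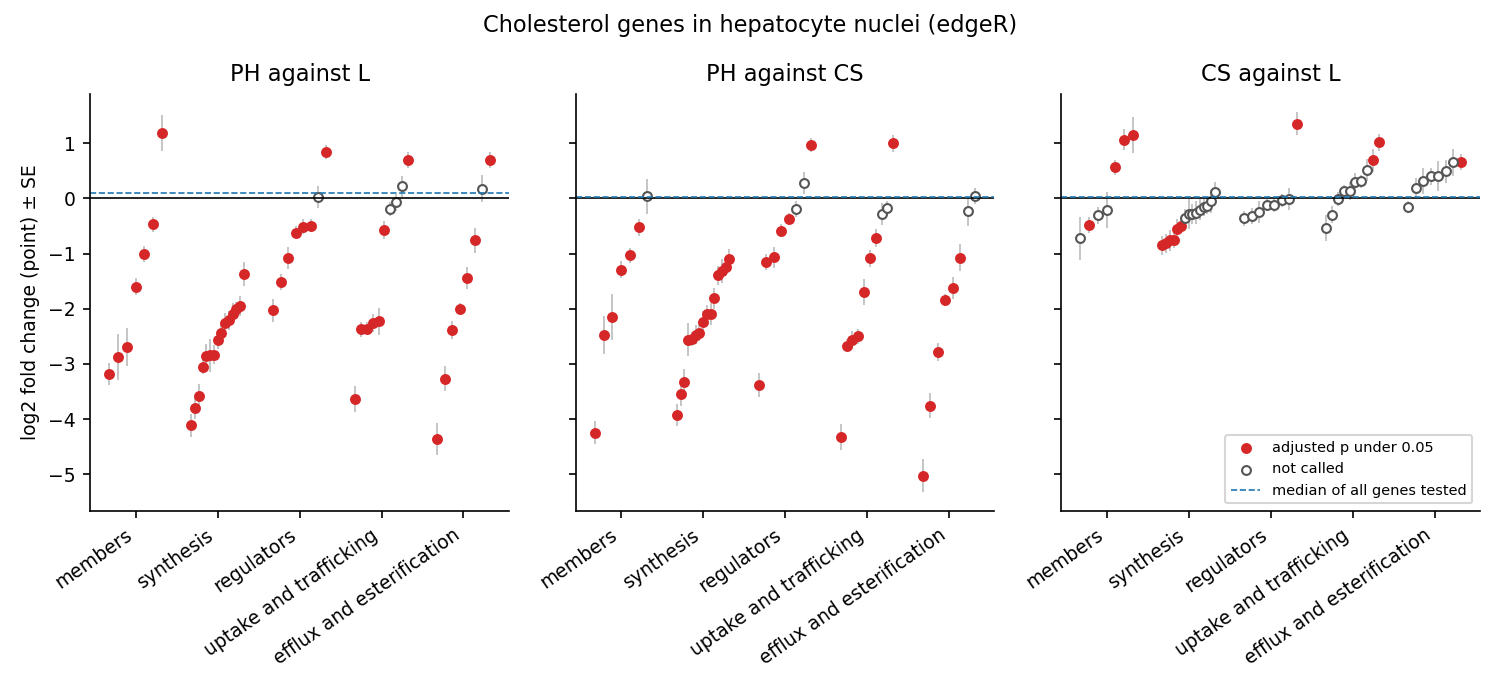
Log2 fold change (y axis) with its SE of every listed gene (points) in 3 comparisons of hepatocyte nuclei, grouped by list on the x axis. Filled points passed the adjusted threshold and the dashed line is the median of all genes tested. All 15 synthesis genes lie below 0 in both comparisons with culture, and the lists scatter around 0 between CS and L.

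Among 8 regulators of SREBP processing and INSIG turnover, 6 were lower and 1 higher in culture than in Liver (median -0.57), against 26.3% and 27.4% of all genes. The split depended on the scaling, for on plain library totals 3 were lower and 2 higher (median -0.0057). Scap, the sterol-sensing escort of SREBP, was lower (-1.08 ± 0.20, edgeR adjusted p = 2.05e-05). Mbtps2, the site-2 protease that releases SREBP, was higher (0.85 ± 0.13, adjusted p = 9.00e-07), and Mbtps1, the site-1 protease, was lower (-0.49 ± 0.11, adjusted p = 3.37e-04), which turned to 0.08 on plain library totals (adjusted p = 0.490). Against Cell Suspension Mbtps1 was called lower with TMM scaling (-0.37) and higher on plain library totals (0.34, edgeR adjusted p = 0.00465). Against Liver, Scap and Mbtps2 kept their calls on plain library totals (-0.53 and 1.41). Srebf1, which drives fatty acid synthesis, was at 117 ± 47.1 CPM in Liver, 299 ± 97.5 in suspension and 28.7 ± 2.32 after culture (SD, n = 8 each), higher after isolation (1.35 ± 0.21, adjusted p = 1.01e-05) and lower after culture than in Liver (-2.03 ± 0.21, adjusted p = 1.08e-09).

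Genes of cholesterol uptake and trafficking were lower in 6 of 10 cases and higher in 1 (median -1.41), beside the same 26.3% and 27.4%, and on plain library totals 5 were lower and 4 higher (median -0.85). Scarb1, the HDL receptor, fell from 223 to 46.6 CPM (-2.26 ± 0.16, edgeR adjusted p = 1.29e-13), and Lrp1, which clears remnant lipoproteins, from 461 to 89.6 CPM (-2.36 ± 0.12, adjusted p = 1.20e-16). Stard4, a carrier of sterol within the cell, was higher after isolation (0.69 ± 0.21, adjusted p = 0.0156) and lower in culture than in Liver (-3.64 ± 0.23, adjusted p = 1.97e-14). Npc2, which hands over cholesterol in the lysosome, was the one that rose with TMM scaling (0.70 ± 0.14, adjusted p = 1.02e-04). Of 8 efflux and esterification genes 6 were lower and 1 higher (median -1.72), and on plain library totals 5 lower and 2 higher. Abcg5 and Abcg8, the pair that exports sterol into bile, fell together (-4.37 ± 0.29 and -3.27 ± 0.22), and Nr1h2, which encodes the sterol sensor LXR beta, rose (0.70 ± 0.14, adjusted p = 1.21e-04). Over all 41 genes of these 4 lists, 36 were called against Liver, 33 lower and 3 higher (28 lower and 8 higher on plain library totals), while 10 were called between Cell Suspension and Liver, 6 lower and 4 higher. This last count is near the background of this comparison, in which 22.3% of all genes were called. With the mouse as a block it was 16, with 9 lower and 7 higher, while 6291 of all 26778 genes were called. The split into lower and higher genes also moved with the scaling. Mvd, for example, lost its lower call with RLE scaling and Ebp gained one on plain library totals.

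Each matrix counts spliced, unspliced and ambiguous UMIs apart, so that young transcripts, which still hold introns, can be set against spliced RNA. In hepatocyte nuclei 74.5% of all UMIs were unspliced in Liver, 66.7% in suspension and 64.3% after culture. The share differed widely among the members. It was highest in Insig2, with 83.6% ± 4.82 in Liver, 88.5% ± 2.38 in suspension and 81.4% ± 1.91 after culture (SD, n = 8 samples), and in Srebf2, with 79.7% ± 2.62, 71.3% ± 2.31 and 72.2% ± 2.80. Insig1 held 38.3% ± 2.598 unspliced UMIs in Liver, 36.7% ± 1.51 in suspension and 29.1% ± 3.83 after culture. In Hmgcs1 the share was 47.2% ± 7.25 in Liver, 26.3% ± 5.79 in suspension and 32.0% ± 9.74 after culture, and every Cell Suspension sample (18.7% to 34.8%) lay below every Liver sample (36.9% to 58.7%). Lss showed the same order, with 33.0% ± 4.44, 17.4% ± 4.55 and 19.2% ± 5.31, and its Cell Suspension samples (11.97% to 26.7%) also lay below those of Liver (27.4% to 41.7%).

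Whether the change differed between unspliced and spliced RNA was tested as an interaction within samples (edgeR, adjusted over 16996 genes). The value of each state is fitted with its own scaling, and the interaction with a joint one. A difference therefore need not equal the gap between the values beside it, and its call depends on the joint scaling. Between Cell Suspension and Liver 5 of 7 members differed, against 22.1% of all genes. Unspliced Lss fell by 1.16 on the log2 scale, whereas spliced Lss gave -0.22 (difference -0.88 ± 0.16, adjusted p = 6.08e-05). For Hmgcs1 the values were -0.95 unspliced and -0.03 spliced (difference -0.82 ± 0.19, adjusted p = 9.03e-04), and neither value alone passed (adjusted p = 0.0905 and 0.956). For both genes the spliced counts showed no called difference after isolation, and the unspliced value lay lower. Insig2 went the other way, with 1.34 unspliced and 0.34 spliced (difference 1.22 ± 0.18, adjusted p = 9.64e-07), and so did Sqle (0.76 and 0.18, difference 0.65 ± 0.13, adjusted p = 2.12e-04) and Insig1 (1.13 and 0.73, difference 0.50 ± 0.12, adjusted p = 0.00206).

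Between Primary Hepatocytes and Liver 3 of 7 differed, against 29.3% of all genes. Idi1 lost more spliced than unspliced RNA (-3.64 and -1.79, difference 1.72 ± 0.26, edgeR adjusted p = 4.57e-07), and Lss more unspliced RNA (-2.29 and -1.38, difference -0.63 ± 0.16, adjusted p = 0.00139). For Sqle the values were -0.29 unspliced and -0.63 spliced (difference 0.62 ± 0.13, adjusted p = 1.46e-04). Insig1 fell by 3.45 unspliced and by 3.21 spliced on the log2 scale, each fitted with its own scaling, and the interaction fit gave a difference of -0.0015 ± 0.067 (adjusted p = 0.992). Between Primary Hepatocytes and Cell Suspension 3 of 7 differed, against 25% of all genes. There spliced Insig2 was higher in culture (0.82 ± 0.35, adjusted p = 0.0450) while unspliced Insig2 gave -0.10 ± 0.31 (difference -0.83 ± 0.17, adjusted p = 1.77e-04), where their sum had given 0.04. Insig1 fell by 4.58 unspliced and by 3.94 spliced on the log2 scale (difference -0.50 ± 0.13, edgeR adjusted p = 0.00259). Idi1 again lost more spliced than unspliced RNA (-2.59 and -1.03, difference 1.46 ± 0.28, edgeR adjusted p = 4.77e-05). In simulated counts this interaction test missed many seeded changes, so a difference that did not pass does not show that both states changed alike.

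**Figure D3:**
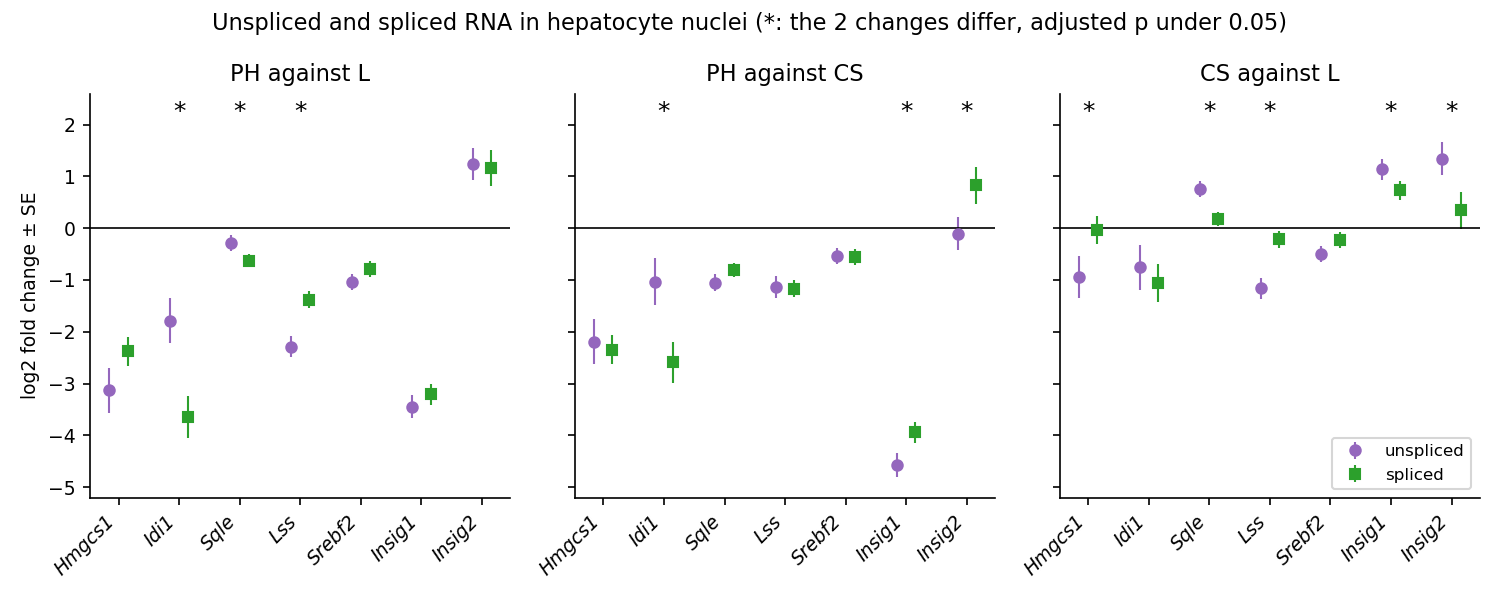
Log2 fold change with its SE (y axis) of unspliced (circles) and spliced (squares) RNA of each member (x axis) in hepatocyte nuclei, for 3 comparisons. A star marks a difference between the 2 changes past an adjusted p of 0.05, seen for 3, 3 and 5 members from left to right, and the largest gaps are those of Idi1 in both comparisons with PH.

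Levels of some members differed several-fold between mice, and the same mice were high before and after isolation. The 3 highest Liver samples for Hmgcs1 were those of mice 1, 3 and 7, at 185, 180 and 160 CPM, and the 3 highest Cell Suspension samples were of the same mice, at 151, 226 and 131 CPM. Mice 2, 6 and 8 were lowest in both, at 54.1 to 64.5 CPM in Liver and 38.0 to 46.3 in Cell Suspension. Over the 8 mice the log2 levels in Liver and Cell Suspension had a Pearson r of 0.95 (exact permutation p = 0.00203, adjusted p = 0.0214 over 21 relations) and a Spearman rho of 0.88 (exact permutation p = 0.00724, adjusted p = 0.0563). Without the 2 mice farthest from the median in Liver, r was 0.93. Both samples of a mouse come from 1 liver, and 4 pools held Liver samples together with Cell Suspension samples.

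Insig2 divided the mice in a similar way. Mice 1, 3 and 7 had 204, 162 and 152 CPM in Liver and 553, 320 and 310 in Cell Suspension, whereas mouse 6 had 36.6 and 55.6 CPM. Between Liver and Cell Suspension r was 0.96 (exact permutation p = 0.00164, adjusted p = 0.0214) and rho 0.86 (p = 0.0107, adjusted p = 0.0563, exact permutation), with r at 0.89 without the 2 farthest mice. In culture the order was not kept: mouse 6 had the highest level, 403 CPM, and mouse 7 the lowest, 171 CPM, and r with Liver was -0.61 (exact permutation p = 0.112, adjusted p = 0.214). For Idi1 and Srebf2 r between Liver and Cell Suspension was 0.84 and 0.88 (adjusted p = 0.0403 and 0.0236, exact permutation). Srebf2 was the one member with a relation to culture that passed for r, with r = 0.84 between Liver and Primary Hepatocytes (exact permutation p = 0.0115, adjusted p = 0.0403), r = 0.79 without the 2 farthest mice and rho = 0.83 (exact permutation p = 0.0154, adjusted p = 0.0646). Between Cell Suspension and Primary Hepatocytes its r of 0.82 (exact permutation, adjusted p = 0.0403) fell to 0.46 without the 2 farthest mice. Mouse 6 had the lowest and mouse 3 the highest Srebf2 level in all 3 sample types. For Sqle, Lss and Insig1 none of the relations passed, with adjusted p of at least 0.136 for r (exact permutation).

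**Figure D4:**
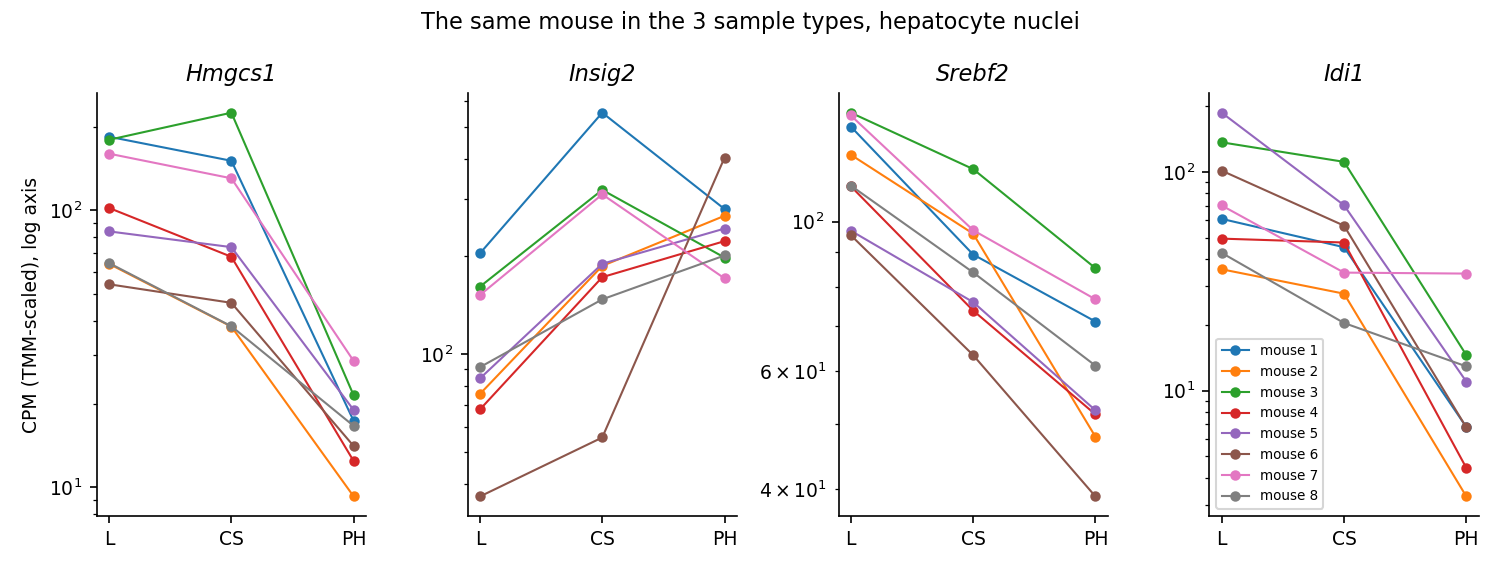
Level of 4 members (y axis, TMM-scaled CPM on a log axis) in the 3 sample types (x axis) of each mouse, 1 line and colour per mouse. For Hmgcs1 and Insig2 the lines of mice 1, 3 and 7 run above those of the others in L and CS, and for Insig2 this order is lost in PH.

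By Pearson correlation, the 10 genes whose deviations from the mean of their sample type were most like those of Hmgcs1 over the 24 samples, among 8616 others, were Itih1 (r = 0.91), Arsg (0.89), Pid1 (0.88), Ugt3a1, Arntl, Fdft1, Abtb2, Pnrc1, Slc16a6 and Il4ra (0.86 to 0.87). Arntl encodes the clock factor BMAL1, and Fdft1 encodes squalene synthase, the one synthesis gene among them. Msmo1 was at rank 32 (r = 0.82) and Sc5d at rank 66 (0.79), while among the members Insig2 came first at rank 436 (0.65) and Srebf2 at rank 495 (0.63). Over the levels themselves, the genes most like Insig1 were Pdp2, H2-Q10 and Thra (r = 0.98 to 0.99), those most like Insig2 were Nedd4l, Pdk4 and Ppfibp1 (0.84 to 0.87), and those most like Srebf2 were Ston2, Msmo1 and Nat8f2 (0.91 to 0.92). Rdh9, Stard13 and Arhgap26 were nearest to Hmgcs1 (0.95 to 0.96), Ttc6, Gpc4 and Efna5 to Idi1 (0.95 to 0.96), Agt, 2900026A02Rik and Sdc1 to Sqle (0.89 to 0.90), and Cyb5b, Gm47467 and Idh1 to Lss (0.95 to 0.96). These are descriptions over 24 samples that share sample types, mice and pools.

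Hepatocytes differ along the lobule from the portal to the central vein, and position was not used to choose the genes. Nuclei were ranked within each Liver or Cell Suspension sample by an index of 10 pericentral and 10 periportal marker genes, none of them a member, and the lowest and the highest of 3 equal parts were compared with the mouse as block. In Liver 4 of 7 members were higher periportally and none was lower, against 10.1% and 10.9% of 22267 genes. Sqle was at 58.5 ± 11.5 CPM in periportal and 29.2 ± 6.70 in pericentral nuclei (SD, n = 8 mice), higher in 8 of 8 mice (log2 difference 1.00 ± 0.11, edgeR adjusted p = 8.86e-08). Idi1 (0.67 ± 0.12, adjusted p = 1.03e-04, 7 of 8 mice), Lss (0.60 ± 0.11, adjusted p = 1.06e-04, 8 of 8) and Insig1 (0.30 ± 0.07, adjusted p = 0.00167, 6 of 8) followed. Hmgcs1 did not share this side: it was at 88.5 ± 53.8 CPM periportally and 106 ± 61.9 pericentrally (-0.25 ± 0.15, adjusted p = 0.292), periportally higher in 3 of 8 mice. Of the 15 other synthesis genes, 3 were higher and 3 lower periportally (median -0.01, the median of all genes being -0.0015).

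In Cell Suspension the same 4 members were higher periportally, among 7.53% of 19779 genes, with Sqle at 1.34 ± 0.13 (edgeR adjusted p = 5.75e-15, 8 of 8 mice), Idi1 at 0.82 ± 0.11 (adjusted p = 6.33e-09, 8 of 8), Lss at 0.81 ± 0.14 (adjusted p = 3.11e-06, 7 of 8) and Insig1 at 0.30 ± 0.10 (adjusted p = 0.0237, 6 of 8). The call of Insig1 was lost when Alb was dropped from the index (0.26, edgeR adjusted p = 0.0784), which left 3 members. Insig2 was lower periportally there, as were 8.71% of all genes, at 179 ± 94.2 CPM against 247 ± 179.9 pericentrally (-0.36 ± 0.10, adjusted p = 0.00709, lower in 7 of 8 mice). The 15 other synthesis genes had a median of 0.23 there, against -0.03 for all genes, with 2 called higher and 2 lower, and of 0.33 with 4 higher and 1 lower when the outer of 5 parts were compared. In Liver the difference of Insig2 was 0.05 ± 0.08 (adjusted p = 0.790), and whether the zones differ between Liver and Cell Suspension was not tested. In Liver 4821 of 14990 nuclei and in Cell Suspension 4043 of 12587 lay within 0.05 of a bound on the index. In the suspensions of mice 1 and 3 the whole periportal part consisted of nuclei tied at -1. It held 563 of 595 such nuclei in mouse 1 and 319 of 338 in mouse 3, taken by their order in the data and not by rank. Primary Hepatocytes were not divided by zone.

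**Figure D5:**
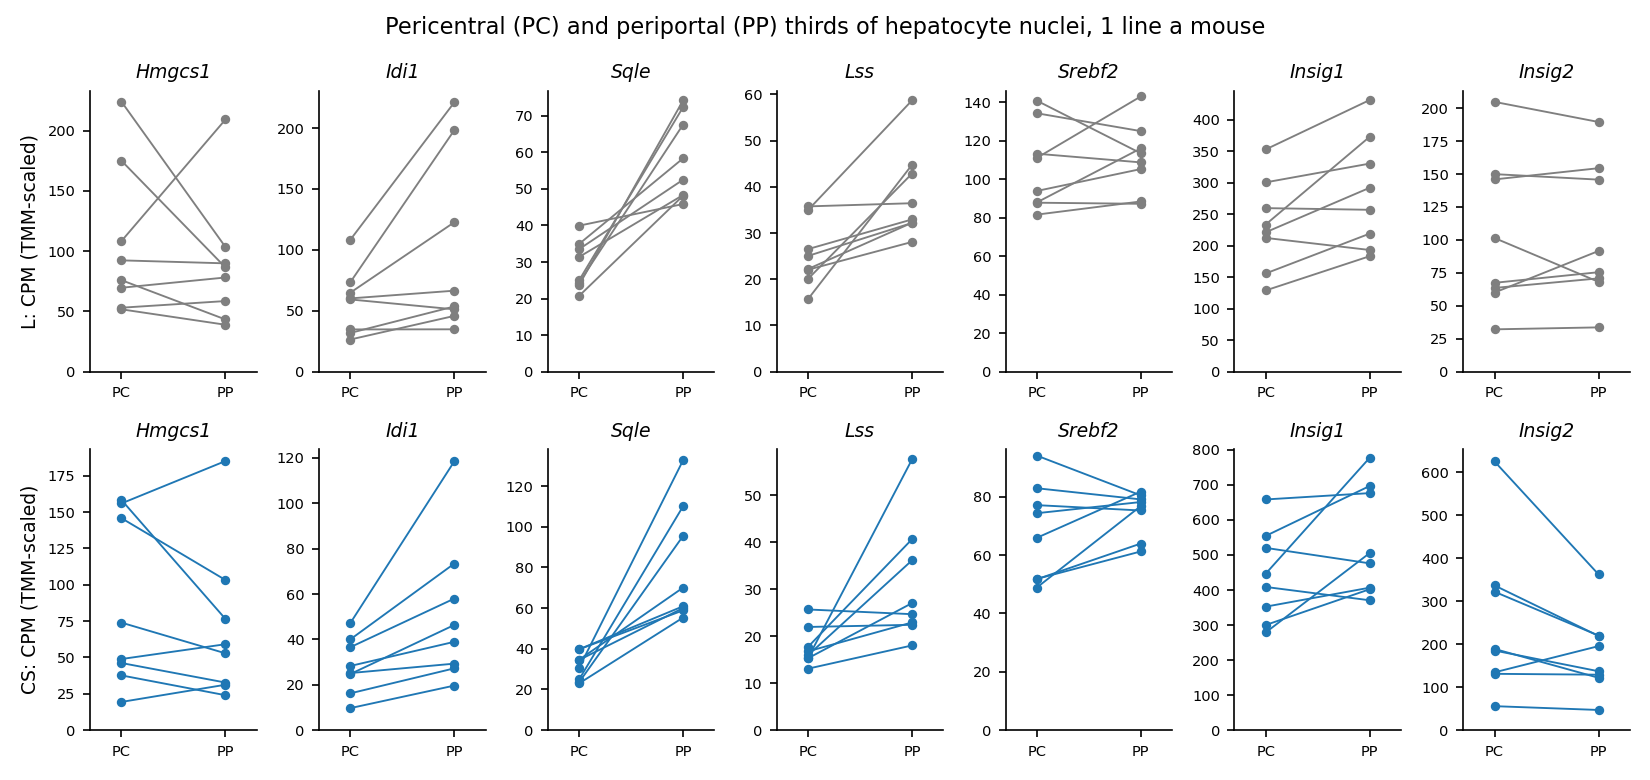
Level of each member (y axis, TMM-scaled CPM from 0) in the pericentral (PC) and periportal (PP) outer parts, each 1 of 3, of hepatocyte nuclei in L (upper row) and CS (lower row), 1 line per mouse. Sqle rises towards PP in all 8 mice of both rows, whereas Hmgcs1 rises in 3 of 8 in each.

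Among the cultured hepatocytes the study's table tells several clusters apart. In its 4 large clusters of at least 1271 nuclei with many UMIs (clusters 0, 1, 14 and 17), mean Hmgcs1 was 14.7 to 28.3 CPM without TMM scaling, Idi1 8.39 to 21.3, Srebf2 31.8 to 102 and Insig2 195 to 384, while Insig1 was 38.1 to 42.1 CPM. Sqle was not low, with means of 45.3, 45.3, 59.7 and 40.8 CPM in clusters 0, 1, 14 and 17 beside 43.7 in Liver (30.5 to 54.0) on the same scale. The means of Hmgcs1 in all of these stood below the Liver minimum of 49.3 CPM on the same scale. Insig1 was low in each of the 4, whereas Srebf2 was lowest in cluster 17 (31.8 CPM) and highest in cluster 0 (102 CPM). The clusters were built from these genes among others, and the values carry no test. Cluster 8, with a median of 1608 UMIs per nucleus, held 1450 cultured, 705 suspension and 166 Liver nuclei, and without it the calls against Liver stayed at 6 lower and 1 higher.

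Endothelial nuclei of the same samples gave a second cell type for comparison, with 2474 nuclei in Liver, 1152 in suspension and 1809 after culture, but their counts were low and hepatocyte transcripts were counted among them. The 8 hepatocyte markers stood in endothelial nuclei at a median of 20.1% of their hepatocyte level in Liver, 25.3% in suspension and 68.5% after culture. A member at or below that share is called background here, which says only that it was not above it. The share after culture is high because the markers were lower in cultured hepatocytes. In endothelial nuclei their median was 2543 CPM in Liver and 2481 after culture. After culture the share therefore does not measure how much of a member came from hepatocytes. By this measure Insig1 (19.8%) and Lss (16.7%) were background in Liver, as they were in Cell Suspension (18.1% and 22.8%). In Primary Hepatocytes Idi1 (28.8%), Insig2 (35.6%), Sqle (41.9%), Lss (45.6%) and Srebf2 (58.7%) stood below the share. By medians Hmgcs1 alone stood above the share in all 3 sample types, at 28.9%, 47.0% and 131%. Over the samples, however, the marker share ran from 17.5% to 28.4% in Liver, 10.5% to 39.9% in suspension and 46.3% to 182% after culture, and that of Hmgcs1 from 16.5% to 71.8%, 8.35% to 145% and 54.2% to 166%. These ranges overlap, so the division into background and signal is not firm.

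In endothelial nuclei Hmgcs1 gave -0.52 ± 0.26 between Primary Hepatocytes and Liver (SE, edgeR adjusted p = 0.126). This change differed from that of hepatocytes by 2.03 ± 0.31 (interaction, adjusted p = 2.83e-08), and that against Cell Suspension by 1.80 ± 0.34 (adjusted p = 1.23e-05). Between Cell Suspension and Liver, where Insig2 stood above the marker share in both (34.1% and 58.1%), its endothelial change lay below that of hepatocytes by a difference of -0.86 ± 0.25 (edgeR adjusted p = 0.0430, 2.46% of 27025 genes). The part of free RNA in these differences was not tested.

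The remaining endothelial calls rest on at least 1 level read as background, and no difference is read from them. Between Primary Hepatocytes and Liver these were Idi1 (-1.51) and Insig2 (1.35), 2 of 7 members where 33.8% of 18279 genes were called. For Insig2 the level called background is the cultured one, at 79.7 to 204 plain CPM in endothelial nuclei against 39.5 to 46.9 in Liver. Against Cell Suspension they were Insig1 (-0.99) and Insig2 (0.89), where 20% of all genes were called, and between Cell Suspension and Liver Insig1 (0.88), where 3.9% were. The interaction passed for 5, 6 and 1 of 7 members in the 3 comparisons, against 25.1%, 18.7% and 2.46% of all genes.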

How the data were processed

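Single-nucleus RNA libraries of 6 pools, each with 4 of the 24 hashtagged samples, were analysed. The deposited matrices hold counts of UMIs per barcode and gene, spliced, unspliced and ambiguous apart, which the authors made with bcl2fastq 2.19.0, Salmon Alevin and Alevin-fry against GRCm38. The authors' table of singlet nuclei gives labels made with Seurat (sample by hashtag, cluster and cell type). Clusters labelled only as cultured cells were read as hepatocyte, endothelial or stellate by the marker list with the highest summed CPM. In the same deposited table the margin of the hashtag call is a fraction, which the authors obtained by mixture clustering and which was not used here. The authors removed doublets and unassigned nuclei before deposit. A hashtag named CD2 was read as Cell Suspension of mouse 2. Hashtag matrices and barcodes outside the table were not used.

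UMIs of hepatocyte nuclei were summed per sample over the 3 splicing states. Genes with at least 10 counts over the 24 samples were fitted with edgeR 4.0.16 (TMM scaling, quasi-likelihood test, sample type as the only term), as the study's own pseudo-bulk model has no term for the mouse, and p-values were Benjamini-Hochberg adjusted over all genes tested, with a threshold of 0.05. The same test served for splicing state, zone and cell type, with the sample or mouse as block. Levels between mice were compared as log2(CPM + 1) by exact permutation tests, two-sided. Hepatocyte sums of 2104087 to 29023569 UMIs set the precision, and the fewest UMIs of a member in a sample were 45 (Lss). The code was tested on simulated counts, in which the test between splicing states missed many seeded changes.

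Same-numbered samples were read as coming from the same mouse. Deviations from the sample type means over 8617 genes correlated in all 8 mice between Liver and Cell Suspension (0.34 to 0.85). They had a median of 0.037 between Liver and Primary Hepatocytes and of 0.017 between Cell Suspension and Primary Hepatocytes. For samples of different mice these medians were -0.016 and 0.0055. By this measure 7 of 8 suspensions were closest to the Liver sample of their own mouse. Only 1 of 8 cultured samples was closest to its own mouse in either comparison, so the pairing of cultured samples is not visible in these values.

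The members and lists were chosen with earlier results of these data known. The genes named are the 7 members, genes of 4 pathway lists and 2 paralogs, the 3 genes most like each member in level, and the 10 most like Hmgcs1 in deviation, the last taken from genes averaging 10 CPM or more. Some genes under this rule are not reported here by name. Alternatives covered scaling, filters, DESeq2 1.42.0, the mouse as block, the pool as covariate, splicing state, choice of nuclei, thinning and leaving out each mouse.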

Additional observations from a re-analysis of the deposited data

Results flagged for a closer look

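A single sample stood apart from the other 7 of its type in 4 of 42 groups of values by Dixon's criterion at the 95% level, and chance alone flags about 1 group in 20. In Primary Hepatocytes, Idi1 was at 34.2 CPM in mouse 7 against 3.28 to 14.5 in the others, and Insig2 at 403 CPM in mouse 6 against 171 to 280. The unspliced share of Hmgcs1 in Primary Hepatocytes was 53.7% in mouse 7 against 22.9% to 34.5%, and that of Insig1 in Liver was 44.1% in mouse 3 against 36.1% to 39.0%.

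The change of a member differed between endothelial and hepatocyte nuclei in 12 of 21 tests (edgeR interaction). From Liver to Primary Hepatocytes the log2 change in endothelial nuclei lay above that in hepatocytes by 2.03 for Hmgcs1, 1.296 for Idi1, 2.01 for Lss, 0.89 for Srebf2 and 2.93 for Insig1. From Cell Suspension to Primary Hepatocytes it lay above by 1.80 for Hmgcs1, 1.10 for Sqle, 1.61 for Lss, 0.96 for Srebf2, 3.24 for Insig1 and 0.76 for Insig2 (18.7% of all genes differed). From Liver to Cell Suspension the difference was -0.86 for Insig2 (2.46% of all genes differed). Hepatocyte markers stood in endothelial nuclei at 20.1% of their hepatocyte level in Liver and 68.5% in Primary Hepatocytes, and their part in these differences was not tested. Apart from Hmgcs1 in both comparisons with culture and Insig2 between Cell Suspension and Liver, each of these 12 rests on at least 1 endothelial level no higher than the marker share. Such a level is called background here, though after culture the share does not measure RNA that came from hepatocytes.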

How the results depend on the processing

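Of the counts of called genes under the alternatives, 137 stayed within 1.5 times the reported count and 5 did not. Between Cell Suspension and Liver, 2 members were called with spliced counts alone, in place of 4, and 16 pathway genes, in place of 10, with edgeR's own filter, with DESeq2, with unspliced counts alone and with the mouse as a replicate block. Apart from the replicate block, the share of all genes called under these settings is not reported here. The counts are therefore not read as more or fewer than that background. With the replicate block, which pairs samples of a mouse, 7, 6 and 4 members and 36, 36 and 16 pathway genes were called against Liver, against Cell Suspension and between these, and no member's call changed. Leaving out each mouse gave 7 to 7, 6 to 6 and 3 to 5 members, and 36 to 36, 35 to 36 and 9 to 11 pathway genes.

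Among single values of the members, 495 kept direction and side of the threshold, 15 lost the call, 8 gained it and 14 turned sign. On plain library totals, an alternative added after seeing the data, Sqle against Liver gave 0.0903 and Srebf2 in Primary Hepatocytes against Cell Suspension 0.17. Insig2 in Primary Hepatocytes against Cell Suspension gave -0.0518 with the pool as covariate, -0.10 unspliced, -0.0066 with nuclei whose annotation matched their sample type, and -0.25 to 0.31 when a mouse was left out. With ambiguous counts added to spliced ones, the unspliced minus spliced change was -0.0803 for Srebf2 (Primary Hepatocytes against Liver) and 0.16 for Sqle (against Cell Suspension). In endothelial nuclei with RLE scaling, Srebf2 and Insig1 gave 0.108 and 0.0273 (Primary Hepatocytes against Liver) and Hmgcs1 0.10 (Cell Suspension against Liver). None of these turned values of the members passed the threshold, and the cause was not tested. Among the listed pathway genes, Mbtps1 in Primary Hepatocytes against Cell Suspension turned from -0.37 to 0.34 on plain library totals and passed on both sides (edgeR adjusted p = 0.00465 for the latter). Leaving out cluster 8 and dropping Alb from the zone index were also added after seeing the data, and without Alb the periportal call of Insig1 in Cell Suspension was lost (adjusted p = 0.0784, edgeR).

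Counts limit Lss and Idi1 most, with as few as 45 and 56 UMIs in a sample. Fewer transcripts per nucleus and a shift among hepatocytes cannot be told apart in sums.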

Other observations

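Within Liver, the deviations of Hmgcs1 over the 8 mice ran with those of Insig2 (Pearson r = 0.88) and Srebf2 (0.80), while those of Idi1 had r = 0.20 with Hmgcs1 and -0.57 with Sqle. Between Hmgcs1 and Insig2 r was 0.74 in Cell Suspension and -0.55 in Primary Hepatocytes, and between Hmgcs1 and Idi1 it was 0.63 and 0.95. The 8 samples of a type share pools and differ in depth, and the values are a description.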
